A study of Mus musculus with 32 samples.

Results

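The genes described here encode the subunits of the mouse 26S proteasome. They were taken from the deposited count table by symbol: every gene named Psma, Psmb, Psmc or Psmd followed by a number, without the interferon-inducible Psmb8 and Psmb9, gave 37 of the table's 24411 genes. They comprise 8 genes of the 20S alpha ring, 9 of the 20S beta ring, 6 ATPases of the 19S base, 3 other base subunits, 8 lid subunits and 3 chaperones of base assembly. The study profiled RNA of microglia, the resident macrophages of the brain, in 4 C57BL/6 mice of each of 2 lines, Cx3cr1-CreER:RPL22-HA and Sall1-CreER:RPL22-HA. In both lines Cre recombinase, made active by tamoxifen, places an HA tag on the ribosomal protein RPL22 (the RiboTag allele), and the driver gene (Cx3cr1 or Sall1) decides in which cells this happens. Every mouse was aged 4 to 6 weeks when it was given tamoxifen, in 4 gavages of 5 mg on alternate days. Each brain gave 4 libraries of polyadenylated RNA. Sort libraries hold RNA of microglia purified by flow cytometry, and SortIP libraries hold the part of it that an anti-HA antibody pulled down. HA libraries were pulled down with that antibody from homogenised brain without sorting, and IgG libraries are the control pull-down with a mouse IgG1 antibody. The 32 libraries thus form 8 groups of 4.

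The proteasome is the cell's main ATP-driven protease for proteins marked with ubiquitin. Its 20S core is a stack of alpha and beta rings; the alpha rings form the gate, and the beta subunits Psmb5, Psmb6 and Psmb7 carry the active sites. In cells of the immune system Psmb10 can take the place of Psmb7, as part of the immunoproteasome. The 19S cap holds the ATPases Psmc1 to Psmc6, which unfold the substrate, and a lid in which Psmd14 removes ubiquitin chains. Transcription of these genes as a set is known to be raised by NRF1, the product of Nfe2l1, when proteasome activity drops.

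Library depth ranged from 249881 to 4047465 gene counts, and it differed between groups. The 4 Cx3cr1 HA libraries held 286418 to 574671 counts against 2200897 to 2470411 in the matching IgG libraries, so low genes are measured less precisely in those HA libraries than in their controls. For the 8 sorted Cx3cr1 libraries, the description contradicts the title and the antibody label on which are Sort and which SortIP. Results below follow the titles, and the main counts that depend on this choice are also given by description. A list of 16 microglia markers took 8.04% ± 0.642 (SD, n = 4) of gene counts in Cx3cr1 HA. In sorted cells it took 6.46% in Sall1 Sort and 8.26% in Sall1 SortIP. By title it took 8.18% in Cx3cr1 Sort and 6.41% in Cx3cr1 SortIP. The lines thus went in opposite directions by title and in the same direction by description. Which label is right was not tested. In Sall1 HA it took 0.580% ± 0.0482 (SD, n = 4), against 0.125% and 0.0975% in the Cx3cr1 and Sall1 IgG groups. All 16 had counts in each of these groups. Astrocyte markers (12 genes) made up 1.49% ± 0.114 (SD, n = 4) in Sall1 HA, 0.514% in Sall1 IgG, 0.123% in Cx3cr1 HA and at most 0.0382% in sorted cells. Sall1 HA therefore carried markers of other cells than microglia, and their part in the results below was not tested. In such bulk libraries fewer cells of a type and less RNA per cell cannot be told apart.

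Base composition is shown first, because the precipitation results below were ordered along it. The following lines give coding bases 1 to 150 of 3 transcripts, of which Psmc6 and Psma6 were among the lowest and Psmd8 among the highest in HA against IgG in both lines. Capitals mark G and C. They are read from GENCODE vM21 transcripts on GRCm38, and each is written along its coding strand, which is the minus strand for Psmd8 and the plus strand for the others.
Psmc6: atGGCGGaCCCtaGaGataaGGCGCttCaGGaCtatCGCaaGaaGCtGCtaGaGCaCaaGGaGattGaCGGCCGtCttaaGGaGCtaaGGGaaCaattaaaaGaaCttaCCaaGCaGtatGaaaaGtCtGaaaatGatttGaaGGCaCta
Psma6: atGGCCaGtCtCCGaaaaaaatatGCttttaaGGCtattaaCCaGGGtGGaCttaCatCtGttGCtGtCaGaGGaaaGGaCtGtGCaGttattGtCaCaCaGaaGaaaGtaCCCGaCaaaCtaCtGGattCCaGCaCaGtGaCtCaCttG
Psmd8: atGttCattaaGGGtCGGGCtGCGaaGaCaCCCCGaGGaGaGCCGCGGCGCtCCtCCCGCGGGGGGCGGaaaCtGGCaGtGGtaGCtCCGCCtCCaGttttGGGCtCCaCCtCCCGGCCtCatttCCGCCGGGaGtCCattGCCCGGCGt
The stretch held 67 G or C bases in Psmc6, 66 in Psma6 and 101 in Psmd8. Over the whole coding sequence G and C made up 41.8% in Psmc6, 43.1% in Psma6 and 55.8% in Psmd8. Psmd13, not shown and also among the highest in both lines, held 50.7%.

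A pair of tissue-specific forms was at or near 0 in all 8 groups. Psmb11, the thymus form of the beta5 subunit, had 0 counts in every Sort, SortIP and Cx3cr1 HA library, 0 to 3 in the IgG libraries and at most 1 in Sall1 HA. Psma8, an alpha subunit of the testis, had 0 to 3 counts per library in Cx3cr1 HA, 1 to 7 in sorted cells and at most 1 in the IgG and Sall1 HA libraries. Neither passed the filter on low counts in any comparison, which left at most 35 genes to test. Together the 37 genes took 0.403% ± 0.0274 (SD, n = 4) of gene counts in Cx3cr1 Sort and 0.340% ± 0.0144 in Sall1 Sort. In IgG the share was 0.512% ± 0.0381 for Cx3cr1 and 0.504% ± 0.0451 for Sall1 mice, and in HA it was 0.457% ± 0.0324 and 0.564% ± 0.00881.

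Levels per length (counts per kilobase and per 1000000 gene counts, group means) had a similar order in the sorted groups. Psmb1, a beta subunit without an active site, stood highest of the 35 in all 4 of them, followed by Psmb10, and Psmd9, a chaperone of base assembly, stood lowest. In Cx3cr1 Sort these levels were 361 for Psmb1, 301 for Psmb10 and 8.39 for Psmd9. In both IgG groups Psmb1 was highest and Psmb4 came next. The HA groups were more uneven. Here the lowest gene was Psmc6, at 1.96 in Cx3cr1 HA and 1.83 in Sall1 HA, and the highest were Psmb6 at 395 in Cx3cr1 HA and Psmb1 at 705 in Sall1 HA. The highest level was 202 times the lowest in Cx3cr1 HA and 386 times in Sall1 HA, while in the other 6 groups this ratio lay between 35.9 and 73.7. The subunits of the complex are assembled in fixed proportions, so their RNA levels are set side by side here only as measured.

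The HA against IgG comparison asks which transcripts sat on tagged ribosomes, over what the control antibody brought down from the same brains. In the Cx3cr1 line, 7 of 35 proteasome genes were higher and 11 lower in HA (edgeR quasi-likelihood test, adjusted p under 0.05 over all 10021 genes tested). Of all genes tested, 28.6% were called higher and 36% lower, and the median log2 fold change was -0.28 both for the 35 genes and for all genes. Single subunits lay far to either side of that median. Fold changes are scaled by the trimmed mean of M values (TMM), whereas counts per 1000000 gene counts (CPM) are given without that scaling.

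Psmb10 rose most in Cx3cr1 HA. Its CPM were 376, 450, 450 and 558 in HA, against 124, 140, 140 and 155 in IgG. Every HA library lay above every IgG library, and the log2 fold change was 2.12 ± 0.18 (SE, n = 4 and 4; edgeR adjusted p = 5.8e-08). Its gene lies at chr8:108459628-108462292 (mm9, minus strand). Psmb7, whose place in the ring Psmb10 can take, went the other way. It was at 20.9, 27.5, 27.8 and 32.1 CPM in HA and at 71.6, 79.9, 140 and 165 CPM in IgG, again without overlap, with a log2 fold change of -1.65 ± 0.32 (edgeR adjusted p = 0.000323). The remaining catalytic subunits did not pass the test, with log2 fold changes of 0.50 ± 0.27 (SE) for Psmb5 and 0.22 ± 0.19 for Psmb6. Without the IgG library of mouse 2, Psmb6 was called higher (0.45, edgeR adjusted p = 0.0192). Psmb5, Psmb6 and Psmb7 have pseudogenes in the table, so reads may be shared among copies and their values are uncertain.

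The alpha ring fell most broadly in Cx3cr1 HA. Of its 7 tested genes 5 were lower and 1 higher, with a median log2 fold change of -1.98. Psma6 (chr12:56485209-56519446, mm9, plus strand) was at 3.06, 3.49, 6.88 and 10.4 CPM in HA and at 27.9, 84.6, 114 and 139 in IgG. The groups did not overlap, and the log2 fold change was -3.36 ± 0.59 (SE; edgeR adjusted p = 0.000284). At 286418 to 574671 gene counts per HA library, these HA levels are only a few counts each. The size of the Psma6 change is thus loosely known. Psma6 also passed the filter on low counts only through its IgG libraries. Psma1 was at 9.18, 13.9, 16.1 and 17.5 CPM in HA and at 33.6, 102, 105 and 128 in IgG (log2 fold change -2.29 ± 0.44, edgeR adjusted p = 0.00037). Psma4 had 11, 0, 0 and 2 counts in HA and did not pass the test (-1.98 ± 0.95, edgeR adjusted p = 0.0918). Psma5 (-2.23), Psma2 (-1.35) and Psma3 (-1.33) were lower as well. Psma7 was the exception, higher by 0.85 ± 0.22 on the log2 scale. As a whole the alpha ring took 0.0375% ± 0.00483 (SD, n = 4) of gene counts in HA and 0.0699% ± 0.0257 in IgG. These groups overlapped, since the IgG library of mouse 2 was at 0.0348% and the HA libraries ran from 0.0332% to 0.0444%.

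In the 19S cap of Cx3cr1 mice, lid and base subunits moved in both directions. The ATPase Psmc6 (chr14:45949499-45968746, mm9, plus strand) had only 1, 0, 3 and 1 counts in the HA libraries of mice 1 to 4, against 9.72, 43.0, 54.1 and 68.2 CPM in IgG from lowest to highest. Its log2 fold change was -3.39 ± 0.81 (SE; edgeR adjusted p = 0.00283), so its size is loosely known. Psmc6 passed the filter on low counts only through the IgG libraries, where it was high. Its call is thus no separate support for the change. It was tested in only 5 of the 8 leave-one-out fits, and called in each of these. The lid subunit Psmd13 (chr7:148068293-148084541, mm9, plus strand) was at 251, 259, 280 and 402 CPM in HA and at 108, 113, 119 and 137 CPM in IgG. Its groups were apart, and it rose by 1.71 ± 0.19 on the log2 scale (edgeR adjusted p = 1.51e-06). Psmd8 (chr7:29959206-29965692, mm9, minus strand), also of the lid, was at 147, 171, 199 and 252 CPM in HA against 74.7, 85.7, 97.2 and 132 in IgG (log2 fold change 1.39 ± 0.23, edgeR adjusted p = 6.88e-05). Across the cap, 1 ATPase rose and 3 fell of 6, 1 of the other base subunits rose and 1 fell of 3, and 3 lid subunits rose and 1 fell of 8. The lid member that fell was Psmd14, the deubiquitinase, at -1.28 ± 0.52 (edgeR adjusted p = 0.0455). This call was lost on leaving out any 1 of the 4 HA libraries or the IgG library of mouse 1 or 3 (adjusted p 0.0652 to 0.117). None of the 3 chaperones of base assembly passed the test. The other called genes of the cap were Psmd3 (1.23), Psmc3 (0.87) and Psmd4 (0.74), which were higher, and Psmc5 (-1.25), Psmd2 (-0.87) and Psmc4 (-0.84), which were lower.

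In the Sall1 line 14 of 35 proteasome genes were higher and 12 lower in HA than in IgG, where 35.2% of all 11545 genes tested were called higher and 36.1% lower. The median log2 fold change was 0.25 for the 35 genes and -0.03 for all genes. The beta ring rose broadly here, with 6 of 8 genes higher and 1 lower, while the alpha ring had 1 gene higher and 4 lower of 7. That split of the beta ring depended on the fit, since with G and C content and length trends removed (described below) 0 of the 8 were higher and 6 lower. Psmd8 rose most, from 78.1, 87.8, 105 and 130 CPM in IgG to 368, 369, 370 and 375 in HA. The 4 HA libraries were nearly level, and the log2 fold change was 2.27 ± 0.16 (SE, n = 4 and 4; edgeR adjusted p = 1.56e-09). Psmd13 followed with 1.99 ± 0.15, from 99.1 to 134 CPM in IgG to 324 to 371 in HA, and then Psmd4, the ubiquitin receptor of the base, with 1.31 ± 0.16.

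Alpha subunits and the ATPase Psmc6 again stood lowest in Sall1 HA. Psmc6 was at 1.06, 1.65, 3.00 and 5.62 CPM in HA and at 29.9, 30.6, 49.5 and 79.5 in IgG, a log2 fold change of -3.48 ± 0.43 (SE). Psma4 was at 1.58, 1.65, 1.71 and 3.29 CPM in HA against 17.5, 17.6, 42.2 and 48.3 in IgG (-3.44 ± 0.44). Psma1 was at 5.80, 7.60, 7.71 and 8.64 CPM in HA against 54.6, 72.5, 87.7 and 99.4 in IgG (-2.96 ± 0.26). In each of these genes the HA libraries lay far below the IgG libraries, with no overlap. Psmc6 and Psma4 passed the filter on low counts only through the IgG libraries, where they were high. Among the catalytic subunits Psmb6 rose by 0.85 ± 0.15 and Psmb5 by 0.54 ± 0.20 (edgeR adjusted p = 0.021), and Psmb7 was lower with -1.35 ± 0.29. The Psmb5 call was lost without the HA library of mouse 7 or 17 or the IgG library of mouse 9 or 21 (adjusted p up to 0.0763). Psmb10 was 0.97 ± 0.15 higher, at 183 to 223 CPM in HA against 130 to 143 in IgG. Psmd14 was lower with -1.02 ± 0.25 (edgeR adjusted p = 0.002). The other calls were higher levels of Psmc3 (1.17), Psmd3 (1.14), Psmd9 (1.03), Psmb1 (0.83), Psmb3 (0.74), Psmb4 (0.60), Psmd12 and Psma7 (0.57 each). Lower were Psma6 (-2.66), Psma5 (-1.55), Psmd11 (-1.47), Psmc5 (-1.10), Psmc4 (-0.85), Psmd1 (-0.46) and Psmd2 (-0.45).

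**Figure D1:**
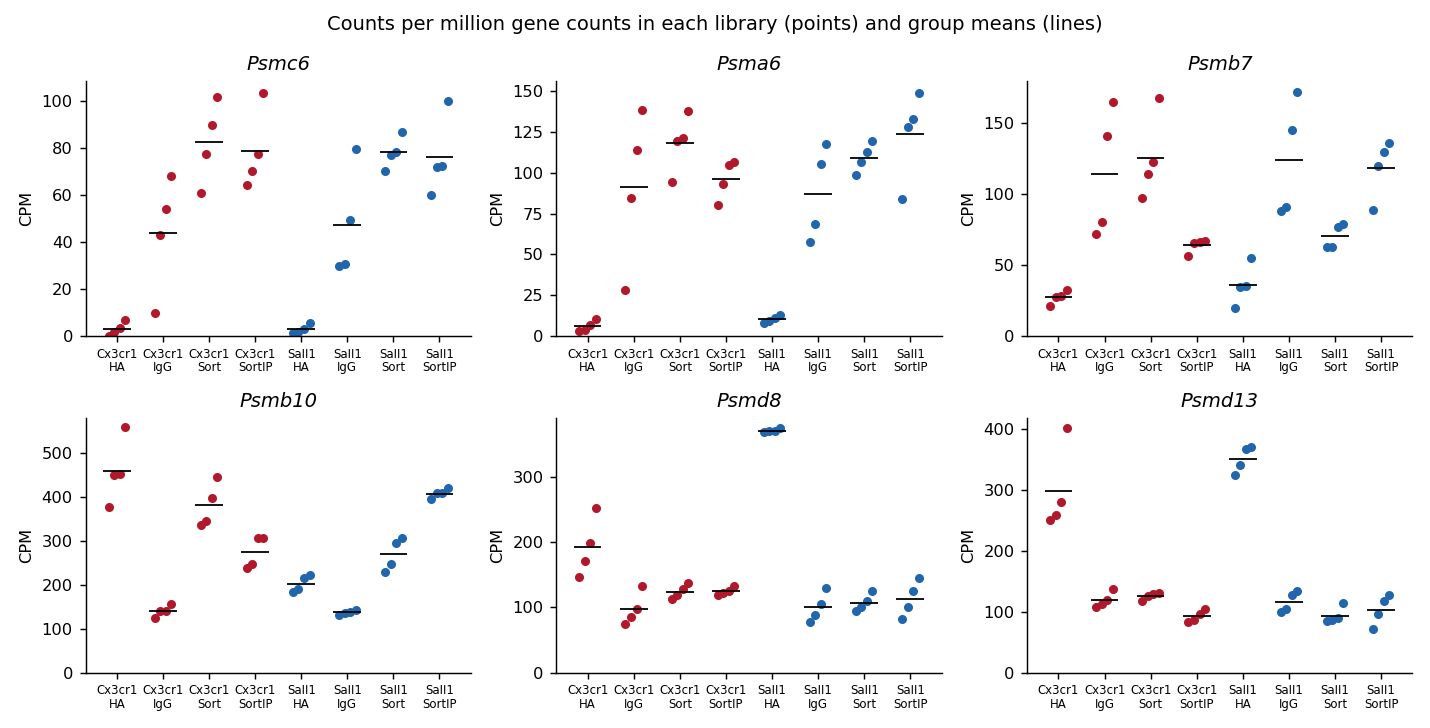
Counts per 1000000 gene counts (CPM, linear axes from 0) of Psmc6, Psma6, Psmb7, Psmb10, Psmd8 and Psmd13 in each library of the 8 groups, with points for the 4 libraries and a line at their mean. Psmc6 is at 0 to 6.88 CPM in Cx3cr1 HA, below every IgG library, while Psmd8 stands at 368 to 375 CPM in Sall1 HA.

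**Figure D2:**
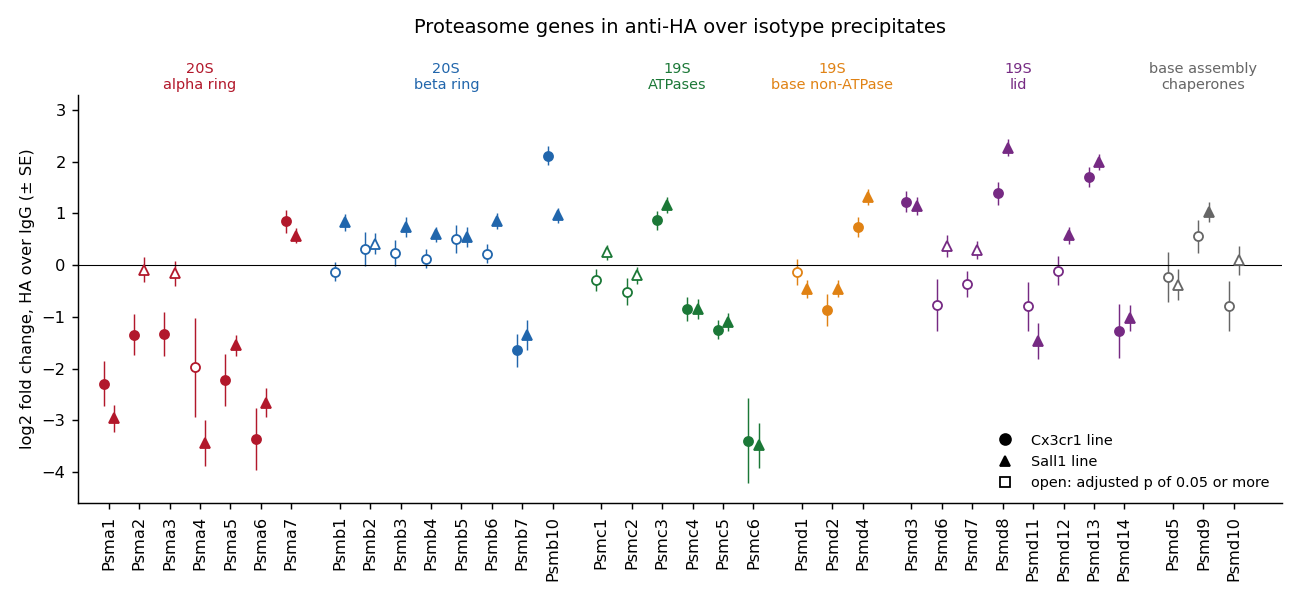
Log2 fold change of HA over IgG for each tested proteasome gene in the Cx3cr1 and Sall1 lines, with standard errors (n = 4 and 4 libraries per line), grouped by place in the complex; open points did not pass the test. Psmc6 lies at -3.39 and -3.48, and Psmd13 at 1.71 and 1.99.

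In the Cx3cr1 line 20 of the 35 genes had HA and IgG libraries that did not overlap in CPM, and in the Sall1 line 22, against 60.6% and 64% of all genes tested. The lines share no library. Of the 35 genes, 16 were called in both, which is 88.9% of those called in the Cx3cr1 line and 61.5% of those called in the Sall1 line. All 16 went in the same direction, with 7 higher (Psma7, Psmb10, Psmc3, Psmd3, Psmd4, Psmd8 and Psmd13) and 9 lower. Spearman's rho between the lines' log2 fold changes was 0.92 across the 35 genes, which are not independent replicates. The split of calls depended on scaling. With no composition scaling, 5 were higher and 18 lower in the Cx3cr1 line, where the median of all genes moved to -0.70. In the Sall1 line 9 were then higher and 15 lower, and the median of all genes moved to -0.44.

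These fold changes followed base composition. Across the 35 genes, Spearman's rho between the G and C content of the transcript and the log2 fold change of HA over IgG was 0.74 in the Cx3cr1 and 0.65 in the Sall1 line. Over all genes tested it was 0.15 and 0.26. The G and C content of the coding sequence gave 0.77 and 0.72, and transcript length gave 0.06 and 0.02. Called genes that rose had a median G and C content of 54.9% in the Cx3cr1 line, against 44.7% for those that fell, and in the Sall1 line these values were 53.7% and 47.4%. Among the exceptions, the ATPases Psmc4 and Psmc5 and the base subunit Psmd2 fell in both lines at 53.5%, 51.6% and 51.3%. Psmb1 and Psmd12 rose in the Sall1 line at 44.7% and 44.3%. The Psmb1 value is that of a transcript of 1758 bases, longer than the 1028 bases in the table. Its coding sequence held 50.1% G and C. Psmc5 was at 57.4, 58.1, 66.1 and 66.3 CPM in Cx3cr1 HA and 186, 191, 195 and 205 in Cx3cr1 IgG, with little spread in either group. With the trends on G and C content and length removed, as described next, rho with the G and C content of the transcript was 0.50 and 0.25 across the 35 genes, which share libraries.

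**Figure D3:**
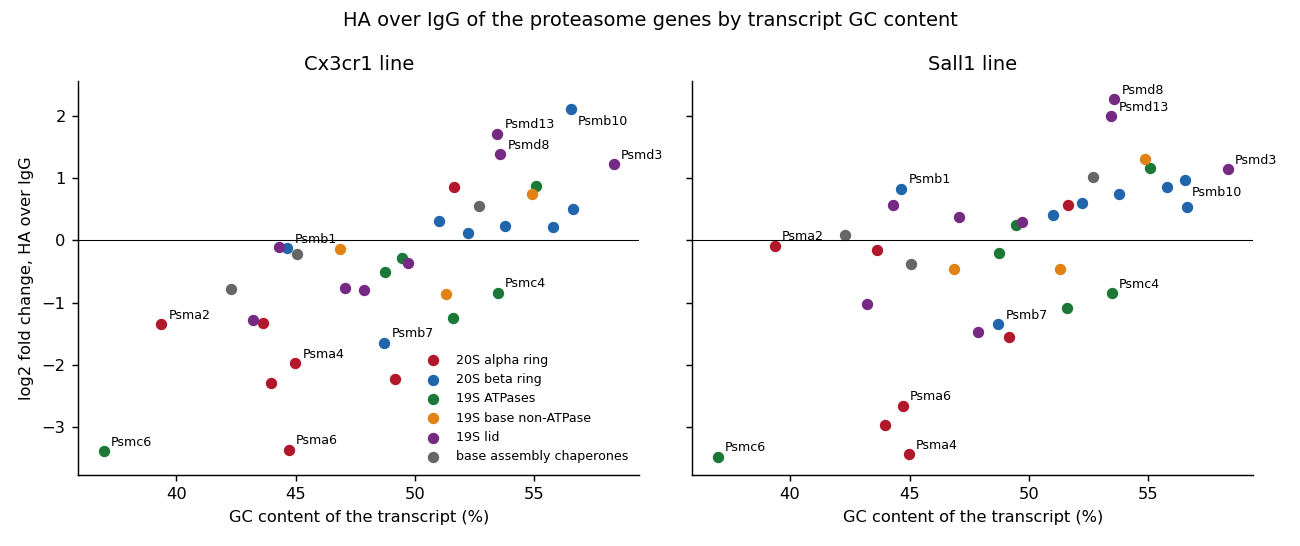
G and C content of the transcript (percent) against the log2 fold change of HA over IgG for the 35 tested proteasome genes, in the Cx3cr1 line and in the Sall1 line. Points rise to the right in both, with Spearman's rho of 0.74 and 0.65.

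A fit with each library's trend on G and C content and on length removed, and with mouse as a block, moved many of the higher calls. It was chosen after seeing the data. With it 4 of 35 genes were higher and 21 lower in the Cx3cr1 line, against 31.3% and 32.1% of all genes, and 6 higher and 19 lower in the Sall1 line, against 33.4% and 32%. Psmd13, at 1.16 and 1.18, and Psmd8, at 0.80 and 1.44, stayed higher in the Cx3cr1 and Sall1 lines. Psmc6 stood at -2.80 and -2.43 and Psma6 at -3.82 and -3.38. Psmd4 was no longer called in either line, at -0.04 (edgeR adjusted p = 0.849) and 0.25 (edgeR adjusted p = 0.161), and Psmc3 was not called in the Cx3cr1 line (0.31, edgeR adjusted p = 0.122). Psmb10 was at 1.30 in the Cx3cr1 line but at -0.13 in the Sall1 line, where it was no longer called (edgeR adjusted p = 0.444). Psma7 was no longer called in the Cx3cr1 line (-0.06) and was lower in the Sall1 line (-0.76). Psmb5 changed to -0.60 and -0.91 and Psmb6 to -0.73 and -0.48. In the Sall1 line Psmb3 (-0.83) and Psmb4 (-0.76) turned from higher to lower as well. With the block and only the length trend removed, Psmb10, Psmb5 and Psmb6 in the Sall1 line were at 0.11, -0.68 and -0.21. The parts of length and of base composition in these shifts were not tested.

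Whether HA enrichment differed between the lines was tested on the difference itself. The enrichment of 2 of 35 genes was higher in Sall1 mice and that of 1 in Cx3cr1 mice, against 18.5% and 13.7% of all 12308 genes tested. The gene more enriched in Cx3cr1 mice was Psmb10, with a difference (Sall1 minus Cx3cr1) of -1.19 ± 0.22 (SE; edgeR adjusted p = 0.000153), and it was called under all 16 leave-one-out fits. Psmb1 differed by 0.91 ± 0.24 (edgeR adjusted p = 0.00506). In Sall1 mice it was at 690 to 768 CPM in HA and 416 to 645 in IgG, and in Cx3cr1 mice at 327 to 457 in HA and 491 to 635 in IgG. Psmd8 differed by 0.86 ± 0.28 (edgeR adjusted p = 0.0192), a call lost without the Cx3cr1 IgG library of mouse 2 or the Sall1 IgG library of mouse 7 or 21 (adjusted p up to 0.0688). With the composition and length trends removed, Psmb1 and Psmd8 were no longer called, at 0.43 and 0.48, and Psmb10 was at -1.56. The split of calls then turned, with 1 gene more enriched in the Sall1 and 5 in the Cx3cr1 line. With mouse as a block alone it was 4 and 1, and with all 8 groups in 1 fit it was 13 and 1. Psmb5, Psmb6, Psmb7 and Psmd14 were not called in the main fit. Psmb6 was called higher with no composition scaling (0.63), with all 8 groups in 1 fit (0.92) and without the Cx3cr1 IgG library of mouse 4 (0.69).

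Compared directly, Sall1 HA held 6 proteasome genes higher and 3 lower than Cx3cr1 HA. Only 32 of the genes passed the filter here, since Psma4, Psmc6 and Psmd11 were too low, and 27.2% of all 9092 genes were called higher and 25.7% lower. Psma3 (1.08 ± 0.34, SE), Psma2 (1.05 ± 0.28) and Psmd6 (0.98 ± 0.35) had the largest increases. Psmb10 was lower, with -1.37 ± 0.17 (edgeR adjusted p = 1.42e-07), with 183, 190, 214 and 223 CPM in Sall1 HA and 376 CPM or more in every Cx3cr1 HA library. Psma1 was lower with -1.10 ± 0.37 (edgeR adjusted p = 0.0138) and Psmd3 with -0.47 ± 0.19. Psma1 was tested in only 4 of the 8 leave-one-out fits. Its call was lost in 2 of these 4, those without the Cx3cr1 HA library of mouse 3 or 4. It was also lost with no low-count filter (edgeR adjusted p = 0.0698) and with all 8 groups in 1 fit (edgeR adjusted p = 0.155). The Psmd6 call was lost without the Cx3cr1 HA library of mouse 1, 2 or 4 (adjusted p up to 0.068). The Psmd3 call was lost in 5 of 8 leave-one-out fits, those without the Cx3cr1 HA library of mouse 2 or 4 or the Sall1 HA library of mouse 7, 9 or 17 (adjusted p up to 0.204). With no composition scaling 11 were higher and 2 lower. Psmb5, Psmb6, Psmb7 and Psmd14 were not called in the main fit. Psmb6 was called higher with no composition scaling (0.53), DESeq2 (0.35), no low-count filter (0.49) and all 8 groups in 1 fit (0.73). With the length trend removed Psmb5 was called lower (-0.77).

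The ratio of Psmb10 to Psmb7, levels per length within a library, sets the immune form against the standard subunit. It was 13.1 ± 2.52 (SD, n = 4) in Cx3cr1 HA, with libraries at 10.3 to 16.4, and 4.95 ± 2.38 in Sall1 HA, with libraries at 2.63 to 8.25. In IgG it was 1.06 ± 0.458 and 0.915 ± 0.301, so both HA groups lay above their controls without overlap. Means in sorted cells lay between those of IgG and Sall1 HA, at 2.35 ± 0.254 in Cx3cr1 Sort, 3.27 ± 0.346 in Cx3cr1 SortIP, 2.91 ± 0.123 in Sall1 Sort and 2.70 ± 0.622 in Sall1 SortIP. The G and C content of the transcript was 56.5% for Psmb10 and 48.7% for Psmb7. The ratio describes both genes together and does not say which of them moved.

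**Figure D4:**
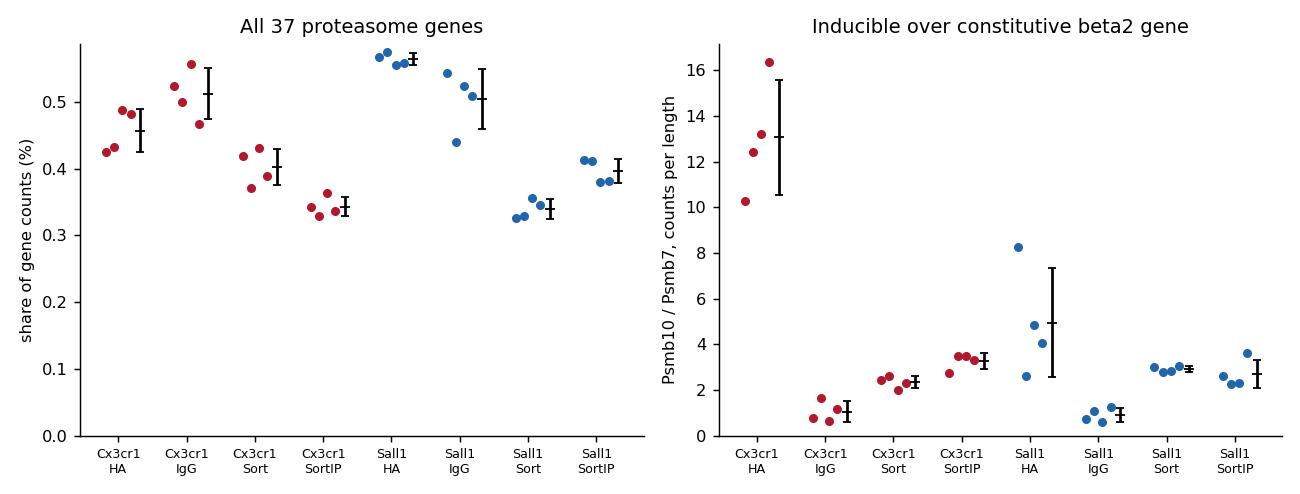
Percent of gene counts taken by the 37 proteasome genes, and the ratio of Psmb10 to Psmb7 in counts per length, for each of the 4 libraries of the 8 groups. Bars give the mean and SD. The share is highest in Sall1 HA (0.564%) and the ratio is highest in Cx3cr1 HA (13.1).

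HA was also compared with SortIP, which sets precipitation from homogenate against the same precipitation after cell sorting. It uses the HA libraries of the comparisons above, so its values are no separate sample of HA. In the Sall1 line 15 of 35 genes were higher and 15 lower, against 42.4% and 37.8% of all 10494 genes. In the Cx3cr1 line 16 were higher and 15 lower, against 32.6% and 37.5% of all 8198 genes, or 12 and 15 with the libraries grouped by description, against 31.9% and 36.2%. Groups did not overlap in 27 genes in the Sall1 and 29 in the Cx3cr1 line, where 73.5% and 64.2% of all genes were apart. Psmc6 was lowest in both lines, with log2 fold changes of -4.48 (Sall1) and -4.40 (Cx3cr1). Its mean in SortIP was 76.1 CPM in the Sall1 and 78.9 CPM in the Cx3cr1 line, near its Sort means of 78.1 and 82.4. Psmb5 and Psmb6 were higher in HA, at 1.32 and 1.48 in the Sall1 line and 2.18 and 1.47 in the Cx3cr1 line, and Psmb7 and Psmd14 were lower in both. By description the Cx3cr1 values were 1.56 for Psmb5, 1.09 for Psmb6 and -2.06 for Psmb7, against -0.97 for Psmb7 by title. Across the lines 28 genes were called in both by title, and only Psmb10 had opposite signs. It was higher in HA in Cx3cr1 mice, with 0.98 ± 0.17 (SE) by title and 0.39 ± 0.17 by description (edgeR adjusted p = 0.0464), and lower in Sall1 mice, with -0.85 ± 0.16. Here too Spearman's rho with transcript G and C content was positive across the 35 genes, 0.70 in the Sall1 and 0.82 in the Cx3cr1 line, against 0.35 and 0.58 over all genes tested. The groups apart, the shared calls and these rho values follow the titles. With the composition and length trends removed, several of these calls were lost. In the Sall1 line Psmb5 was at -0.24 (edgeR adjusted p = 0.346), Psmb6 at 0.06 (edgeR adjusted p = 0.73) and Psmd14 at -0.28 (edgeR adjusted p = 0.27). In the Cx3cr1 line Psmb10 was at -0.020 and Psmd14 at 0.23, neither called, while Psmb5 (1.01) and Psmb6 (0.50) were still called higher.

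Within sorted microglia, SortIP against Sort sets the RNA pulled down with anti-HA against all RNA of the sorted cells. In the Sall1 line, where labels do not conflict, 6 of 35 genes were higher in SortIP and 0 lower, against 5.45% of all 8603 genes higher and 5.08% lower. All 6 were beta ring genes: Psmb1, Psmb4, Psmb5, Psmb6, Psmb7 and Psmb10. Psmb10 was at 228, 246, 296 and 307 CPM in Sort and at 393, 407, 408 and 419 in SortIP, apart in every library (log2 fold change 0.74 ± 0.14, SE, n = 4 and 4; edgeR adjusted p = 0.00243). Psmb7 was at 62.6, 62.6, 76.9 and 78.8 CPM in Sort and 88.4, 119, 129 and 136 in SortIP (0.87 ± 0.18, edgeR adjusted p = 0.00532). Psmb5 (0.83 ± 0.26) and Psmb6 (0.51 ± 0.15) were near the threshold. Each lost its call in 6 of 8 leave-one-out fits, Psmb5 in those other than without the SortIP library of mouse 9 or the Sort library of mouse 21, and Psmb6 in those other than without the Sort library of mouse 7 or the SortIP library of mouse 17 (adjusted p up to 0.174 and 0.13). The count of calls was 3 without the Sort library of mouse 9 or of mouse 17. With no composition scaling 3 of the 35 were higher and 0 lower. Of the 35 genes 6 had groups that did not overlap, against 17.9% of all genes.

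In the Cx3cr1 line by title, 0 genes were higher in SortIP and 9 lower, against 6.36% of all 8704 genes higher and 6.45% lower. By description the same values read the other way, with 9 higher and 0 lower. Psmb7 was at 97.4, 114, 123 and 167 CPM in the libraries titled Sort and at 56.3, 65.7, 66.3 and 67.0 in those titled SortIP, which did not overlap. Its log2 fold change was -1.10 ± 0.18 (SE; edgeR adjusted p = 0.00146) by title and 1.10 by description. The ATPase Psmc2 (-0.68 ± 0.15), Psmb5 (-0.63 ± 0.19) and Psmb10 (-0.60 ± 0.14) were also lower by title. The remaining calls were Psma7, Psmb1, Psmb4, Psmd3 and Psmd13, between -0.46 and -0.56. Psmb5 lost its call without the Sort library of mouse 1, 3 or 4 or the SortIP library of mouse 1 or 4 (adjusted p up to 0.111). The count of calls was 4 without the library titled Sort of mouse 1 or 3, and 5 without the library titled SortIP of mouse 1 or 4. With no composition scaling 1 was higher and 4 lower. With mouse as a block Psmb6 was also called lower (-0.39, edgeR adjusted p = 0.046, against 0.079 without it). Groups were apart in 8 genes, against 18.7% of all genes.

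The SortIP over Sort change was then compared between the lines, a test added after seeing the data. By title 15 of 35 genes had a higher SortIP over Sort ratio in Sall1 than in Cx3cr1 mice and 0 a lower ratio, against 14.4% and 14.8% of all 9212 genes. Psmb7 differed by 1.98 ± 0.26 (SE), Psmb5 by 1.48 ± 0.33, Psmb10 by 1.35 ± 0.20 and Psmb6 by 0.91 ± 0.20. With the libraries grouped by description, 0 of the 9212 genes were called by edgeR (253 at an unadjusted p under 0.05, of which 1 was a proteasome gene), and Psmb7 differed by -0.23 ± 0.26.

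**Figure D5:**
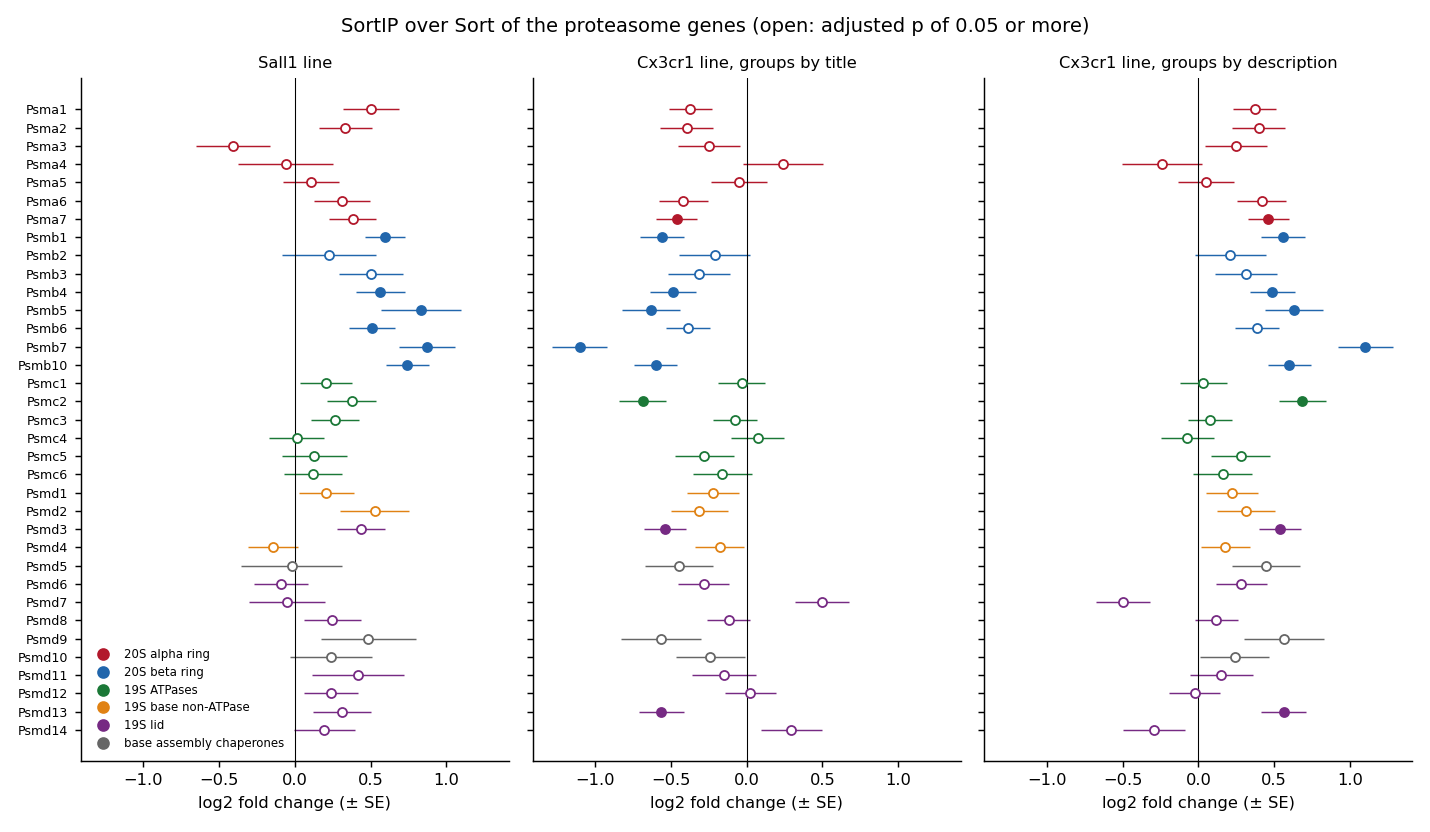
Log2 fold change of SortIP over Sort with standard errors (n = 4 and 4 libraries) for the 35 tested proteasome genes, in the Sall1 line and in the Cx3cr1 line grouped by title and by description; filled points passed the test. Psmb7 lies at 0.87, -1.10 and 1.10 in these panels.

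Sort against IgG in the Sall1 line sets purified microglia against whole brain background. Of 35 genes 7 were higher and 15 lower, against 37.1% and 41.1% of all 11291 genes, and 20 had groups apart, against 72.5%. The lid subunits Psmd6 (1.20), Psmd12 (0.83) and Psmd11 (0.75), the chaperone Psmd10 (1.12), Psmb10 (0.96 ± 0.17, SE), Psmc6 (0.79) and Psma1 (0.68) were higher in sorted cells. Lowest were Psmd2, a base scaffold subunit (-2.21 ± 0.21), Psmc5 (-1.80) and Psmb4 (-1.74). The standard catalytic subunits were lower as well, Psmb5 at -1.74, Psmb6 at -1.25 and Psmb7 at -0.81, while Psmd14 stood at -0.21 and was not called. With the composition and length trends removed Psmd14 was called lower (-1.14, edgeR adjusted p = 4.04e-05), as was Psmc6 (-0.97), and Psmd10 (-0.12, edgeR adjusted p = 0.682) and Psma1 (-0.30) were not called. Median-ratio size factors gave 5 higher and 19 lower, and DESeq2 4 and 19. Neuron markers made up 1.30% and 1.32% of gene counts in the IgG groups and at most 0.0293% in sorted cells, and their part in these differences was not tested.

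No proteasome gene was called between the lines' IgG libraries or between their sorted microglia. Between IgG groups 0 of 35 passed edgeR, 0 had an unadjusted p under 0.05 and DESeq2 called 0, against 0.00863% of all 11593 genes. Their log2 fold changes ran from -0.40 to 0.62. For sorted cells the counts of each mouse's Sort and SortIP libraries were summed, which sets the label conflict aside. Again 0 of 35 were called by edgeR, 0 had an unadjusted p under 0.05 and DESeq2 called 0, against 2.67% of all 9966 genes. The log2 fold changes of Sall1 over Cx3cr1 lay between -0.23 and 0.21, with standard errors of 0.10 to 0.26.

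Other genes of the pathway were taken from a list of 37 (assembly factors, activators, shuttles, ubiquitin genes and transcriptional regulators), of which 35 had a row in the table. In HA against IgG, 13 of 33 tested were higher and 6 lower in the Cx3cr1 line, and 13 higher and 8 lower in the Sall1 line. Of all genes tested, 28.6% and 36% were called higher and lower in the Cx3cr1 line, and 35.2% and 36.1% in the Sall1 line. Psme1, a subunit of the PA28 activator found with immunoproteasomes, rose most of them in Cx3cr1 mice, by 2.74 ± 0.21 (SE), at 247 ± 56.0 CPM (SD, n = 4) in HA and 49.1 ± 6.16 in IgG. In Sall1 mice it was 1.28 higher, and the difference between the lines was -1.50 ± 0.27 (edgeR adjusted p = 0.000126), of the same sign as that of Psmb10. Its partner Psme2 had low counts, with 7.28 ± 3.22 CPM in Cx3cr1 HA, and was tested only for that difference (-1.99, edgeR adjusted p = 0.0743). Pomp, the maturation factor of the 20S core, rose in both lines (1.60 ± 0.18 and 1.64 ± 0.16), as did Shfm1, the small lid subunit, with 1.95 and 2.03. Lower in both the Cx3cr1 and the Sall1 line were Usp14, a deubiquitinase of the cap (-4.21 ± 1.07 and -4.66 ± 0.50), Ubqln2, a ubiquitin shuttle (-2.52 ± 0.48 and -1.70 ± 0.21), and Psme4 (-1.82 ± 0.71 and -3.43 ± 0.43). Mean HA levels were low, at 3.41 and 1.92 CPM for Usp14 and 4.61 and 1.64 CPM for Psme4. The sizes of these changes are thus loosely known, and the Psme4 groups overlapped in the Cx3cr1 line. Ufd1l was lower in the Cx3cr1 line (-1.02) and did not pass the test in the Sall1 line (-0.13). Nfe2l1 did not pass the test in either line (-0.32 and -0.26).

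Nfe2l2, which encodes the stress regulator NRF2, set the sorted samples apart most among these genes. It was at 389 ± 35.7 CPM (SD, n = 4) in Sall1 Sort, 368 ± 75.2 in Sall1 SortIP, 6.16 ± 0.946 in Sall1 HA and 25.3 ± 5.64 in Sall1 IgG. Its log2 fold change was 3.95 for Sort against IgG and -5.71 for HA against SortIP in that line, and -3.65 for HA against SortIP in the Cx3cr1 line. In HA against SortIP 11 of 33 pathway genes were higher and 15 lower in the Sall1 line, and 10 higher and 11 lower in the Cx3cr1 line by title, against 42.4% and 37.8%, and 32.6% and 37.5%, of all genes. Nfe2l1 was higher in HA in both (1.33 and 1.40). Sort against IgG had 11 higher and 8 lower of 34, against 37.1% and 41.1% of all genes, with Psme1 at 2.75 and Nfe2l1 at -1.72. In SortIP against Sort, Vcp, the segregase that extracts ubiquitinated proteins, was 1.19 higher in Sall1 mice and 0.84 lower in the libraries titled SortIP of Cx3cr1 mice. It was 1 of 3 genes higher and 0 lower of 33 in the Sall1 line, and 1 of 4 lower, with 1 higher, of 34 in the Cx3cr1 line by title. Of all genes 5.45% were higher and 5.08% lower in the Sall1 line, and 6.36% and 6.45% in the Cx3cr1 line. Between IgG groups 0 of 34 were called by edgeR, 1 had an unadjusted p under 0.05 and DESeq2 called 0.

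Promoter windows (250 bases before to 50 after the start, RefSeq on GRCm38.p6) were found for 30 of the 37 genes, 32 windows in all. The core of the antioxidant response element, TGACNNNGC on either strand, through which NRF1 and NRF2 are known to bind, was in 5 of the 32 (15.6%), against 12.4% of all 32851 windows. The CCAAT box, searched on both strands, was in 37.5% of them, against 37.4% of all windows. The element lay nearest to the start in Psmb6, 9 bases before it, and the matches of the catalytic subunits and of Psmc6 are shown with the motif in capitals, each written along the strand of the match.
Psmb6: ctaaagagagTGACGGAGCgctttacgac
Psmb5: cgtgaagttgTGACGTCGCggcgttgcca
Psmc6: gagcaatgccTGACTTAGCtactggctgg
These lie at chr11:70525338-70525366 (plus strand), chr14:54618024-54618052 (minus strand, that of Psmb5) and chr14:45329587-45329615 (minus strand, opposite to Psmc6). Psmd9 and Psmd12 held the remaining matches. Genes with the element did not move together, since in Sall1 HA against IgG Psmb5, Psmb6, Psmd9 and Psmd12 were higher and Psmc6 lower. A match describes letters in the window and not binding.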

How the data were processed

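RNA of 32 libraries was sequenced as polyadenylated RNA. The deposited values are raw read counts over exons of 24411 genes, which the authors did not normalize. The tools named in the submitters' processing notes are HISAT 0.1.5, HOMER and bcl2fastq, with the genome build mm9. Values of genes with pseudogenes or overlapping neighbours are uncertain, as the handling of multiply mapped reads and the strand setting were not given in the sources used here. Groups came from the sample titles.

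Each comparison was fitted over all genes with edgeR 4.0.16 in R 4.3.3 (robust quasi-likelihood, TMM scaling, filterByExpr with a minimum count of 10 and total of 15), and genes with a Benjamini-Hochberg adjusted p under 0.05 were called. In all, 12 comparisons were fitted, of which 1 was added after seeing the data. CPM are counts per 1000000 gene counts, and levels per length divide them by the table's transcript length in kilobases. G and C content is that of the GENCODE vM21 (GRCm38) transcript matched by RefSeq accession, found for all 37 genes. For some genes this transcript differs in length from the table's, as in Psma2 (2911 against 936 bases) and Psma3 (859 against 2385 bases). DESeq2 1.42.0, limma 3.58.1, Python 3.11.15 and pandas 2.3.3 were also used. The fitting step was tested on simulated data.

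The members, the pathway list and the marker lists were chosen with earlier results of these data known. The rule for naming genes covered, in each comparison, up to 3 called genes with the largest and 3 with the smallest log2 fold change, Psmb5, Psmb6, Psmb7, Psmb10 and Psmd14, and of the pathway genes up to 2 called in each direction with the smallest adjusted p, Nfe2l1, Pomp, Psme1 and Psme2. Not every gene of this rule is printed in every comparison. Other names were added after their values were seen.

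The 4 libraries with the same number within a line come from the same mouse. Their deviations from the group means had a small median r of 0.041 over 48 pairs (-0.11 to 0.22). This was higher than for 144 pairs of different mice (median -0.015, -0.21 to 0.14). The main fits did not use this pairing. No 2 libraries of a group agreed within counting noise. Each mouse is a separate animal, and precision is limited by 4 mice per line and by low counts. Alternatives were other size factors, no low-count filter, DESeq2, 1 fit of all 8 groups, the replicate block, removal of trends on length or on G and C content, grouping by description and leaving out each library. Some results are not reported here.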

Additional observations from a re-analysis of the deposited data

Results flagged for a closer look

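Among 112 sets of 4 libraries checked for a value far from the rest, where chance gives about 5%, 2 stood out. Psmb7 in the Cx3cr1 library titled SortIP of mouse 4 was lowest at 56.3 CPM, with the nearest library at 65.7. Psmd13 in the Sall1 Sort library of mouse 9 was highest at 114.6 CPM, with the nearest at 88.8.

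The HA over IgG enrichment differed between the lines, by the test of the difference, for Psmb1 (0.91, Sall1 minus Cx3cr1 on the log2 scale), Psmd8 (0.86) and Psmb10 (-1.19). The SortIP over Sort change by title differed between the lines for Psmb7 (1.98), Psmb5 (1.48), Psmb10 (1.35) and Psmb6 (0.91), and these differences depend on the conflicting labels of the sorted Cx3cr1 libraries.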

How the results depend on the processing

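Counts of called proteasome genes stayed within 1.5 times the main count under most settings, and the cause of the exceptions was not tested unless the setting's construction shows it. The HA enrichment difference had 3 calls, and 14 with all 8 groups in 1 fit, 5 with the replicate block, 6 with the block and the G and C and length trends removed, and 2 to 6 on leaving out a library (6 without the Cx3cr1 IgG library of mouse 2). With all 8 groups in 1 fit, Sall1 HA against Cx3cr1 HA had 16 calls, Sall1 SortIP against Sort 2 and the Cx3cr1 comparison 4. With no composition scaling the last pair had 3 and 5 calls. Leaving out a library gave 3 to 5 calls in Sall1 SortIP against Sort and 4 to 10 in the Cx3cr1 comparison. Grouping by description turned the latter to 9 higher and left 0 calls in the difference of SortIP over Sort. The replicate block moved no other count by over 1.5 times, and of the genes singled out by rule it changed the call of Psmb6 in Cx3cr1 SortIP against Sort and no other. With TMM library sizes the share of counts was 0.320% in Cx3cr1 SortIP, 0.669% in Sall1 HA and 0.318% in Sall1 Sort, and by description the Psmb10 to Psmb7 ratio was 3.27 in Cx3cr1 Sort and 2.35 in Cx3cr1 SortIP.

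Among the genes singled out by rule, these changed sign. With the block and the length trend removed, Psmb6 was at -0.48 in Cx3cr1 HA against IgG, and Psmb5 at -0.68 and Psmb6 at -0.21 in the Sall1 line. With the G and C trend removed too, Psmb5 and Psmb6 were at -0.60 and -0.73 in the Cx3cr1 line, and Psmb5, Psmb6 and Psmb10 at -0.91, -0.48 and -0.13 in the Sall1 line. In HA against SortIP that fit gave -0.24 for Psmb5 (Sall1), -0.020 for Psmb10 and 0.23 for Psmd14 (Cx3cr1), and in Sall1 Sort against IgG -0.12 for Psmd10. By description Psmb10, Psmb5, Psmb7 and Psmc2 were at 0.60, 0.63, 1.10 and 0.68 in Cx3cr1 SortIP against Sort, and Psmb7 at -0.23 in the SortIP over Sort difference. Depth limits the lowest genes most, such as Psmc6 with 0 to 3 counts in Cx3cr1 HA.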
